A study of Mus musculus with 4 samples.

Results

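Solute carriers are membrane proteins that move sugars, amino acids, ions, metals, vitamins, nucleotides and other small molecules across membranes, and the mouse genome names most of them with the prefix Slc and a family number. The genes described here were all genes with such a symbol apart from the Slc22, Slc7 and Slc3a families and the genes Slc12a1, Slc12a3, Slc14a2, Slc4a1, Slc26a4, Slc40a1 and Slc11a2. In all, 262 Slc genes had a probe set of their own, an oligonucleotide group on the array that reports 1 gene. Of these, 40 were set aside by this rule and 222 remained. Where a gene had several probe sets, the one with the highest average level was used. The expression filter, a mean log2 value of 6.27, which is the 40th percentile of all probe sets, was reached by 160 of the 222. The last genes inside the filter were Slc23a3 with a mean of 6.39, Slc5a5 with 6.35 and Slc10a2 with 6.30. The first outside were Slc10a6 and Slc25a47 with 6.25 each and Slc24a3 with 6.24. The values behind this choice are mean levels over the 4 arrays, so that a high array can bring a gene past the filter. Among the members inside, 5 had at least 1 array under the filter's level, and 0 had 3 such arrays.

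The study asked how blocking the angiotensin converting enzyme bears on kidney injury in chronic immune complex glomerulonephritis. Whole kidney RNA came from male C57BL/6 mice of 17 weeks that had been treated for 9 weeks, in 4 groups of 6 mice. In the GN groups, glomerulonephritis was induced by intraperitoneal apoferritin of horse spleen, 10 mg on 5 days a week, with lipopolysaccharide of Salmonella minnesota as adjuvant, 100 µg given 3 times a week, from about 8 weeks of age and for 6 weeks. The saline groups received 0.15 M NaCl in equal volumes. Within each pair, one group drank water and the other received captopril, an inhibitor of the angiotensin converting enzyme, at 100 mg/kg/day in its drinking water. The groups are named by injection and drink (Saline+Water, for example, or GN+Captopril). Each has 1 array, and whether RNA of 1 mouse or a pool was hybridised is not in the labels, so the differences below have no replicate check and carry no p-value.

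In the kidney, carriers of the proximal tubule's brush border and basolateral membrane return filtered glucose, phosphate, sulphate, amino acids and organic acids to the blood. Carriers of the later segments set the transport of salt and acid. Others of the series sit inside the cell, in the inner mitochondrial membrane (Slc25), in the Golgi and endoplasmic reticulum (Slc35), or on lysosomes and vesicles.

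A pair of limits of the series touch the values below. The array labelled GN+Water goes against its male label, with 8.97 for the X-inactivation transcript Xist against 5.02 to 5.21 on the other 3 arrays, and with 3.43 for the Y-linked gene Eif2s3y against 8.02 to 8.29. The Saline+Water array stands apart in its hybridisation controls, whose median was 10.84 over 18 probe sets against 7.46 to 7.89. The comparison of GN+Captopril with Saline+Captopril uses neither array. All 10 markers of macrophages and leukocytes passed the filter, and their summed level (log2) was 11.84 and 11.94 on the saline arrays (water, captopril) and 14.24 and 13.49 on the GN arrays (water, captopril). The summed level of 7 measured proximal tubule markers lay between 16.06 and 16.18 on the 4 arrays. The summed level of 5 measured adipocyte markers was 10.67, 10.98, 11.58 and 11.71 in the same order. Adipoq was higher with GN by 2.02 on water and 1.15 on captopril, Fabp4 by 0.89 and 0.73 and Retn by 0.65 and 0.08. The others lay below the filter and did not all go this way, with -0.65 and -0.23 for Lep and -0.22 and 1.03 for Cidec. Among 6 markers of the distal nephron, Pvalb was lower with captopril, with differences of -3.25 in saline and -1.86 in GN. Calb1 was likewise lower, with -1.07 and -0.97. In saline others went the other way, with Cldn16 1.99-fold higher, Umod at 0.13 and Kcnj1 at 0.03. In GN these were at -0.36, -0.31 and -0.75. By 1.5-fold, 1 of the 6 was higher and 2 were lower in saline, against 0 and 3 in GN. The median differences were -0.02 in saline and -0.56 in GN. The part of these lists in the carriers' differences was not tested. In whole kidney, fewer cells of a type and less RNA per cell cannot be told apart.

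The solute carrier genes differed far more often in comparisons that use the Saline+Water array or the array labelled GN+Water than between the 2 captopril arrays. The same held for all genes past the filter. Relative to Saline+Water, 20 of 160 members reached 1.5-fold higher on the array labelled GN+Water (12.5%, against 19.6% of all 8207 genes past the filter) and 30 were at least 1.5-fold lower (18.8%, against 15.3%). Between GN+Captopril and Saline+Captopril, 3 were higher (1.88%, against 1.85% of all genes) and 1 was lower (0.625%, against 0.207%). Captopril without GN went with 13 higher (8.12%, against 15.6%) and 20 lower (12.5%, against 10.2%). Captopril with GN went with 14 higher (8.75%, against 3.70%) and 10 lower (6.25%, against 4.52%). A difference of 1.5-fold is 0.58 on the log2 scale. The median differences in the same order were -0.10, 0.01, -0.03 and 0.02, with 0.00, 0.00, 0.01 and 0.00 over all genes.

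Many of these differences rest on 1 array. The Saline+Water array lay at least 1.5-fold outside the other 3 for 25 members, above them for 15 (9.38%, against 7.31% of all genes) and below them for 10 (6.25%, against 12.5%). The array labelled GN+Water lay above the other 3 for 4 members (2.50%, against 3.35%) and below them for 8 (5.0%, against 1.90%). On Saline+Captopril 1 member, Slc11a1, lay that far below the others (0.625%, against 0.110%) and 0 above (against 0.0122%). On GN+Captopril 1 member, Slc51a, lay that far above them (0.625%, against 0.122%) and 0 below (against 0.0122%). Against both saline arrays at once, the array labelled GN+Water was 1.5-fold higher for 5 members (against 5.14% of all genes) and lower for 8 (against 2.13%). For 5 members captopril went with a 1.5-fold difference one way in saline and the other way in GN (against 1.82%), namely Slc26a1, Slc25a42, Slc25a25, Slc10a2 and Slc8a1. No other probe set of Slc8a1 showed this. Slc10a2, and Slc23a3 among those high on the array labelled GN+Water, each had 2 arrays under the filter's level. Of the 33 members apart between the saline arrays, 25 were those with the Saline+Water array apart. These 25 also made up part of the 50 apart between the water arrays, of which 14 had no array apart from the rest. Of the 24 apart between the GN arrays, 12 were those with the array labelled GN+Water apart.

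**Figure D1:**
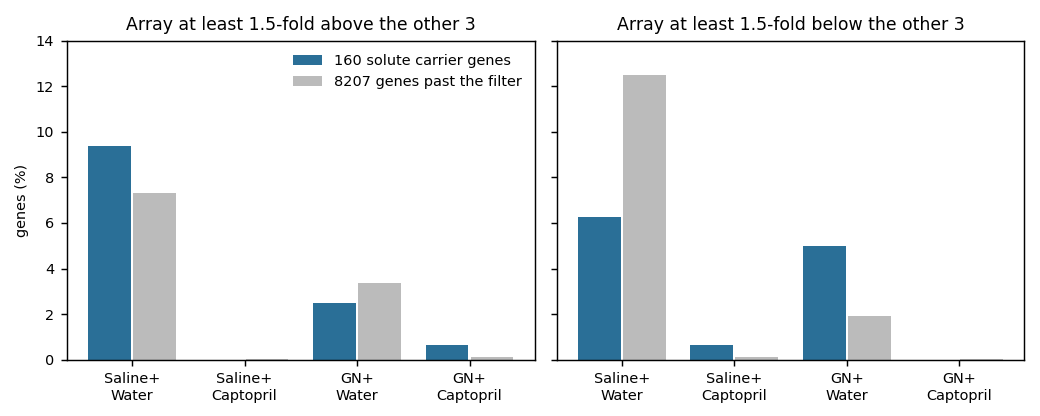
Percentage of genes (vertical axis, from 0) for which 1 array lay at least 1.5-fold above (left) or below (right) each of the other 3, for 160 solute carrier genes (blue) and all 8207 genes past the filter (grey). Below the others, the array labelled GN+Water holds 5.0% of the solute carriers against 1.90% of all genes, and the Saline+Water array 6.25% against 12.5%.

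Over all 4 arrays the median member spanned 0.50 on the log2 scale from lowest to highest, close to the 0.51 of all genes. By the probe set chosen, 97 members (60.6%, against 56.9%) stayed within 1.5-fold. Without the Saline+Water array the median span was 0.24 and 133 members stayed within 1.5-fold (83.1%, against 88.6%). Between the 2 captopril arrays alone it was 0.11, and 156 members stayed within 1.5-fold (97.5%, against 97.9%). The narrowest members included Slc4a4, the basolateral sodium bicarbonate cotransporter of the proximal tubule, at 11.48 and 11.47 on the saline arrays, water before captopril, and at 11.40 and 11.42 on the GN arrays, again water before captopril, although another of its probe sets was lowest on Saline+Water, at 10.22 against 10.69 to 10.77. All sets of 4 levels below follow this order.

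The 4 members that differed by 1.5-fold between GN and saline on captopril were Slc11a1, Slc51a, Slc20a1 and Slc8a1. Slc11a1, a metal transporter of the phagosome membrane of macrophages, had levels of 7.34, 6.64, 7.64 and 7.45. It was 1.76-fold higher on GN+Captopril than on Saline+Captopril (log2 difference 0.81). The low array was Saline+Captopril: GN+Captopril lay only 0.12 above Saline+Water, and the GN difference on water was 0.30. The macrophage and leukocyte markers were higher on both GN arrays, with 9 of 10 at least 1.5-fold higher on captopril and 10 of 10 on water, and their part in the Slc11a1 difference was not tested.

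Slc51a, the alpha chain of the basolateral exporter of bile acids and steroids, had levels of 10.33, 10.38, 9.56 and 11.05. It was 1.58-fold higher on GN+Captopril than on Saline+Captopril (0.66), and on the array labelled GN+Water it was 1.71-fold below Saline+Water (-0.77). The 2 saline arrays lay within 0.05 of each other, so that the GN arrays held both the highest and the lowest level. Of 5 measured adrenal cortex markers, whose summed level was 8.47, 8.09, 7.98 and 8.62 (saline arrays, then GN arrays, water before captopril), 2 passed the filter. Hsd3b1 was high on GN+Captopril, at 7.39 against 5.83 to 6.01 on the other 3, while Cyp21a1 was at 7.24, 6.20, 5.89 and 6.14 and high on Saline+Water. Each reached the filter's level of 6.27 only on its high array, and so passed only through that array. The part of this list in the Slc51a value was not tested.

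Slc20a1, the housekeeping sodium phosphate cotransporter PiT-1, had levels of 8.08, 8.02, 7.91 and 8.61. Its highest value was on GN+Captopril, 1.51-fold above Saline+Captopril (0.60), and the other 3 arrays lay close together. The difference fell to 0.57 when the arrays were centred on their medians and to 0.56 after quantile normalisation, both under 1.5-fold, and the gene's second probe set, which lay below the filter, differed by 0.16. Slc8a1, the sodium calcium exchanger NCX1, had levels of 7.61, 8.42, 8.74 and 7.79. It was 1.55-fold lower on GN+Captopril than on Saline+Captopril (-0.63) and on the array labelled GN+Water it was 2.18-fold above Saline+Water (1.12). Its 2 other probe sets lay below the filter; they differed by -0.60 and -0.76 on captopril, but by 0.05 and -0.76 on water, so that its difference on water is uncertain.

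Just under the threshold on captopril were Slc5a6, the sodium-dependent uptake carrier of biotin and pantothenate (0.53), Slc16a1, the lactate and pyruvate carrier MCT1 (-0.51), and Slc43a3, a carrier of purine nucleobases that its family name places with amino acid carriers (0.50). Slc43a3 had levels of 7.44, 7.44, 8.23 and 7.94. Both GN arrays lay above both saline arrays, by at least 0.50, which was the widest such gap among the members. In all, 20 members had both GN arrays above both saline arrays (12.5%, against 16.1% of all genes) and 19 had both below (11.9%, against 14.7%). The gaps among those below were small, at most 0.19 for Slc38a3, the glutamine carrier SNAT3 of the basolateral membrane, at 8.43, 8.19, 8.0 and 8.0, and 0.17 for Slc13a3, the basolateral dicarboxylate carrier NaDC3, at 11.69, 11.77, 11.20 and 11.52.

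**Figure D2:**
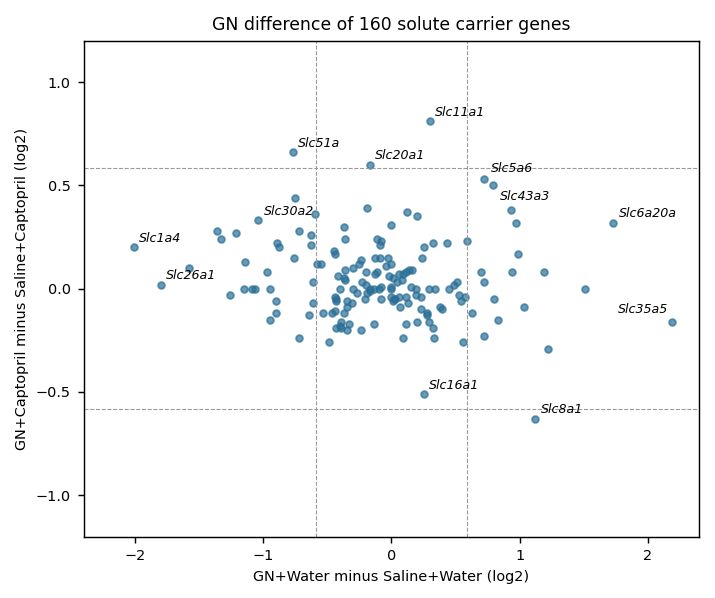
Log2 difference GN+Water minus Saline+Water (horizontal axis) against GN+Captopril minus Saline+Captopril (vertical axis) for 160 solute carrier genes, 1 point per gene, with dashed lines at 1.5-fold. On the vertical axis Slc11a1 (0.81), Slc51a (0.66), Slc20a1 (0.60) and Slc8a1 (-0.63) lie beyond the lines; on the horizontal axis 50 genes do.

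The array labelled GN+Water lay below the other 3 for 8 members that share no single substrate. Slc30a2, a zinc carrier that fills intracellular vesicles, had levels of 8.56, 8.56, 7.52 and 8.88. Its GN+Water value was 2.05-fold below the next lowest array (gap 1.04 on the log2 scale). Slc46a3, a lysosomal member of the folate carrier family, had levels of 8.65, 8.44, 7.39 and 8.40, a gap of 1.02. These were the widest gaps below the others on this array.

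Slc6a9, the glycine carrier GlyT1, had levels of 9.04, 8.79, 7.97 and 8.79, and its second probe set was also lowest there, at 7.23 against 7.73 to 8.06. Slc26a1, the basolateral sulphate and oxalate exchanger of the proximal tubule, had levels of 9.50, 8.43, 7.70 and 8.46, and was the 1 member with the Saline+Water array apart upwards and the array labelled GN+Water apart downwards. Slc25a42, the mitochondrial carrier of coenzyme A, had levels of 9.41, 8.81, 8.08 and 9.05. Slc5a8, the apical sodium-coupled carrier of lactate and other monocarboxylates, had levels of 10.33, 10.63, 9.61 and 10.91. For these 3 genes with a single probe set the gaps were 0.73, 0.72 and 0.72. Slc35a3, the Golgi carrier of UDP-N-acetylglucosamine, had levels of 9.30, 9.56, 8.58 and 9.32, but its second probe set was lowest on Saline+Water, at 7.92 against 8.01 for GN+Water, so that its low level is uncertain. The eighth was Slc51a.

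The same array lay above the other 3 for 4 members. Slc9a8, the sodium proton exchanger NHE8, had levels of 8.80, 8.68, 9.51 and 8.76. Its second probe set was highest there too, at 8.75 against 8.15 to 8.43, but by less than 1.5-fold. With both averaged, the Slc9a8 difference between the water arrays was 0.53 in place of 0.70. Slc5a6 had levels of 7.60, 7.12, 8.32 and 7.65. Slc23a3, an orphan relative of the vitamin C carriers, had levels of 6.13, 6.01, 7.05 and 6.39, so that 2 of its arrays lay under the filter's level. Slc31a2, a copper carrier of intracellular membranes, had levels of 8.40, 8.50, 9.12 and 8.53; its second probe set reached 8.39 on this array and 8.35 on Saline+Water, and did not show the gap. The gaps were 0.70, 0.67, 0.66 and 0.60. The sex-linked genes that go against the label of this array move with all 12 values, and their part was not tested.

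**Figure D3:**
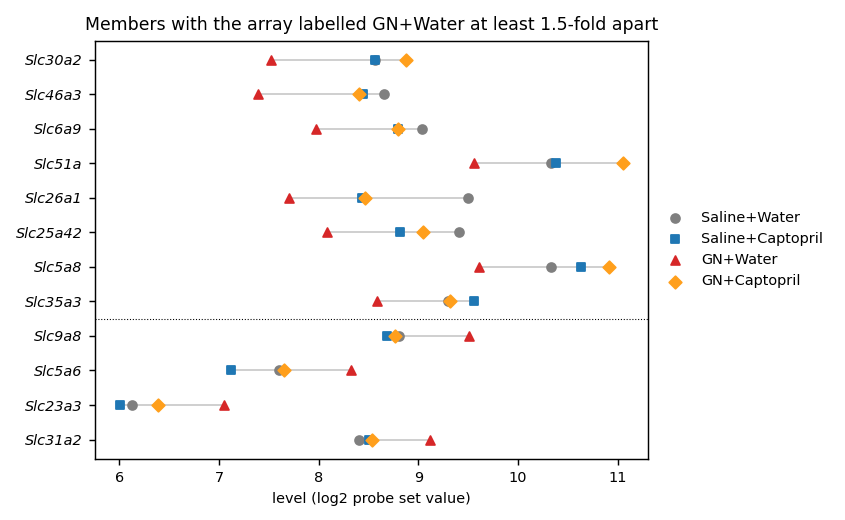
Level (log2 probe set value, horizontal axis) of the 12 solute carrier genes for which the array labelled GN+Water (red triangles) lay at least 1.5-fold below (above the dotted line) or above (under it) the other 3 arrays, 1 symbol per array. For Slc30a2 that array stands at 7.52 and the others at 8.56 to 8.88.

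Promoter windows of RefSeq, of 300 bases from 250 before to 50 after an annotated transcript start (build GRCm38.p6), were found for 127 of the 160 members. They are printed here for 4 of the genes low on the array labelled GN+Water: Slc30a2 and Slc46a3, which had the widest gaps, and Slc51a and Slc26a1, the 2 among the 8 whose windows hold a searched motif. They read 5′ to 3′ along the gene's strand, at chr4:134343216-134343515 (plus strand) for Slc30a2, chr5:147894766-147895065 (minus) for Slc46a3, chr16:32487830-32488129 (minus) for Slc51a and chr5:108674747-108675046 (minus) for the second window of Slc26a1. Capitals mark the matches, on either strand, to the motifs named in the next paragraph.
Slc30a2: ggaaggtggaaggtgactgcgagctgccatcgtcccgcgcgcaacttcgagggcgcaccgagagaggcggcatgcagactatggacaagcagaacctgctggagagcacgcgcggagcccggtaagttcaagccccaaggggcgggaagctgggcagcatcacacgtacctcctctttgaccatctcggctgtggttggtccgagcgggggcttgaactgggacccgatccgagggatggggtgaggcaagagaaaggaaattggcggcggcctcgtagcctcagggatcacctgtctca
Slc46a3: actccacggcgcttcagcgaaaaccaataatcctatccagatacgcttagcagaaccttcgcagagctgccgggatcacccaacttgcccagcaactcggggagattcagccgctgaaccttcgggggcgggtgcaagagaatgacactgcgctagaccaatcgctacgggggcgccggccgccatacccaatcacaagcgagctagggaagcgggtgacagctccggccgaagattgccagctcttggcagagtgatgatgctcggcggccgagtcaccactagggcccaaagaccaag
Slc51a: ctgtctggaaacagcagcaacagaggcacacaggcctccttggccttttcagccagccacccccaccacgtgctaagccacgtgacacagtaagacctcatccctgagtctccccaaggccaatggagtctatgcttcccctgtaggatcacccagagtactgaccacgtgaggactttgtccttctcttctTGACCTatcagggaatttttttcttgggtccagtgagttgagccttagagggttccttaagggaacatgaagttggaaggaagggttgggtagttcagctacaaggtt
Slc26a1: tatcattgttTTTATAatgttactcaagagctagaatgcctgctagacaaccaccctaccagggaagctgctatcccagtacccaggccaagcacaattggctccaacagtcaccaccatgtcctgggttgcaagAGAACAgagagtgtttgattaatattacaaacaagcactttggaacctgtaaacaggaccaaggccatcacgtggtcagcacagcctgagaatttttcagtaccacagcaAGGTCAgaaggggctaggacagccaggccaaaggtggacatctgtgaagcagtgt

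The search covered both strands and 5 motifs. AGGTCA, the core read by many nuclear receptors, was in 16.3% of the 172 member windows and in 16.3% of all 32851 windows. AGAACA, the core read by androgen, glucocorticoid and mineralocorticoid receptors, was in 9.88% and 19%. GTTAAT, read by HNF1, was in 3.49% and 7.10%, and TATAAA, the TATA box, in 6.98% and 13.6%. The inverted repeat AGGTCANTGACCT, which contains AGGTCA and is preferred by the bile acid receptor, was in 0 member windows and in 3 of all. Among the 11 windows of the 8 low genes, AGGTCA stood in those of Slc26a1 and Slc51a, and AGAACA and TATAAA in that of Slc26a1. Among 5 windows of the 4 high genes, AGGTCA stood in that of Slc31a2 and GTTAAT in that of Slc23a3. These matches describe the letters of the windows.

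By substrate class, 15 of 22 sugar carriers with a probe set passed the filter. By the probe set chosen, 13 stayed within 1.5-fold on all 4 arrays (against 56.9% of all genes), which does not hold for all probe sets. None was higher by 1.5-fold in any comparison. The shares of all genes were 19.6% between the water arrays, 1.85% on captopril, 15.6% between the saline arrays and 3.70% between the GN arrays. The lower ones were 1 between the water arrays (against 15.3%) and 2 between the saline arrays (against 10.2%). Slc5a2, the bulk glucose carrier SGLT2 of the early proximal tubule, had levels of 12.19, 11.74, 11.67 and 11.62, highest on Saline+Water. Its second probe set had the same high array with a larger gap, at 12.05 against 11.01 to 11.13, and differed by -0.99 between the water arrays. Slc5a1, its high-affinity relative SGLT1 of the late proximal tubule, ran the other way at 9.0, 9.42, 9.51 and 9.45, lowest on Saline+Water. Its second probe set was also lowest there but far more so, at 5.91, 8.38, 8.56 and 8.65, and differed by 2.64 between the water arrays where the chosen one differed by 0.51, so that the size is uncertain. Slc2a2, the basolateral glucose carrier GLUT2, was at 11.35, 11.75, 11.44 and 11.51. Slc37a4, which brings glucose 6-phosphate into the endoplasmic reticulum, was at 11.90, 11.70, 11.36 and 11.82, lowest on the array labelled GN+Water. The widest member was Slc37a1 of the same family, with 7.53 for Saline+Water against 6.42 to 6.57 elsewhere. Slc2a1, the glucose carrier GLUT1, was at 9.43, 9.10, 9.48 and 9.05, and both captopril arrays lay below both water arrays by at least 0.33.

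Among carriers of phosphate, sulphate and other inorganic anions, 15 had a probe set and 10 passed the filter. Between the GN arrays 3 of the 10 were at least 1.5-fold higher on captopril (against 3.70% of all genes) and 0 lower (against 4.52%), with a class median of 0.31 against 0.00 over all genes. These 3 were Slc26a1 (0.76), Slc17a3 (0.73) and Slc20a1 (0.70). Slc17a3, the apical urate and organic anion carrier NPT4, had levels of 12.88, 12.99, 12.44 and 13.17, lowest on the array labelled GN+Water. Slc17a1, its neighbour on chromosome 13 and the related carrier NPT1, had levels of 12.40, 12.85, 12.40 and 12.79, so that both captopril arrays lay above both water arrays, by at least 0.39, the widest such gap among the members. Slc34a1, the main phosphate carrier NaPi-IIa of the brush border, was steady at 13.44, 13.43, 13.17 and 13.41. Slc34a2, the related NaPi-IIb, was on the array labelled GN+Water 1.92-fold above Saline+Water, at 6.23, 6.71, 7.17 and 6.78, all near the filter's level. Slc13a1, the apical sulphate carrier NaS1, was at 12.54, 12.55, 12.65 and 12.38, while the basolateral partner in sulphate transport, Slc26a1, spanned 1.80.

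Of 10 carriers of mono- and dicarboxylates with a probe set, 7 passed. Between the GN arrays Slc5a8 was 2.46-fold higher with captopril (1.30), and 3 members of the proton-coupled Slc16 family were lower (against 4.52% of all genes). Slc16a1 had levels of 10.08, 10.04, 10.33 and 9.54, 1.73-fold lower on GN+Captopril (-0.79), with the low value on that array. Slc16a7, the monocarboxylate carrier MCT2, had levels of 9.08, 8.73, 9.28 and 8.57, and Slc16a4, an orphan member, levels of 9.88, 10.08, 10.44 and 9.82. Slc16a7 was lower on both captopril arrays than on both water arrays, by at least 0.35, the widest gap in that direction. Basigin, encoded by Bsg, and embigin, encoded by Emb, are the chaperones of this family. Bsg stood at 12.68, 11.96, 12.03 and 11.87 and Emb at 8.37, 8.59, 9.22 and 8.59. In all, 28 members had both captopril arrays above both water arrays (17.5%, against 17.3% of all genes) and 22 had both below (13.8%, against 11.4%).

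Of the amino acid, peptide, osmolyte and transmitter carriers, 20 of 34 passed the filter. They were more variable, with a median span of 0.81 against 0.51 over all genes. Between the water arrays 5 of the 20 were higher on GN and 6 lower, against 19.6% and 15.3% of all genes. On captopril 0 were higher or lower, against 1.85% and 0.207%. The apical peptide carrier PEPT2, Slc15a2, had levels of 9.73, 10.04, 10.56 and 9.89, highest on the array labelled GN+Water. Its second probe set gave 8.39, 8.79, 9.31 and 8.58, in the same order of arrays. Slc6a6, the taurine carrier, had levels of 11.22, 10.58, 10.32 and 10.52. Slc6a8, the creatine carrier, had levels of 11.70, 10.73, 10.81 and 10.95. Both were highest on Saline+Water, and so was Slc38a10, at 11.76 against 10.56 to 10.69. Slc38a2, the neutral amino acid carrier SNAT2, was lowest there at 7.52, 8.60, 9.03 and 8.60.

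Slc6a20a and Slc6a20b lie next to each other on chromosome 9, and the first is the imino acid carrier SIT1. Slc6a20a had levels of 5.83, 7.56, 7.56 and 7.88 and Slc6a20b levels of 11.87, 11.45, 10.92 and 11.45. Between the water arrays they differed in opposite directions, by 1.73 and -0.95, and on captopril they differed by 0.32 and 0.00. The genes are close copies, so that cross-hybridisation between them is a limit on both values. Slc1a4, the neutral amino acid carrier ASCT1, was on the array labelled GN+Water 4.03-fold below Saline+Water, at 8.80, 7.11, 6.79 and 7.31, but its 2 other probe sets differed by -0.16 and -0.37, and its value is uncertain. Slc1a1, the glutamate carrier EAAT3, was at 11.39, 11.10, 11.04 and 11.13 (another of its probe sets was lowest on Saline+Water, at 10.21), and Slc6a18, the apical glycine carrier, at 10.84, 10.76, 10.91 and 10.68, both within 1.5-fold.

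**Figure D4:**
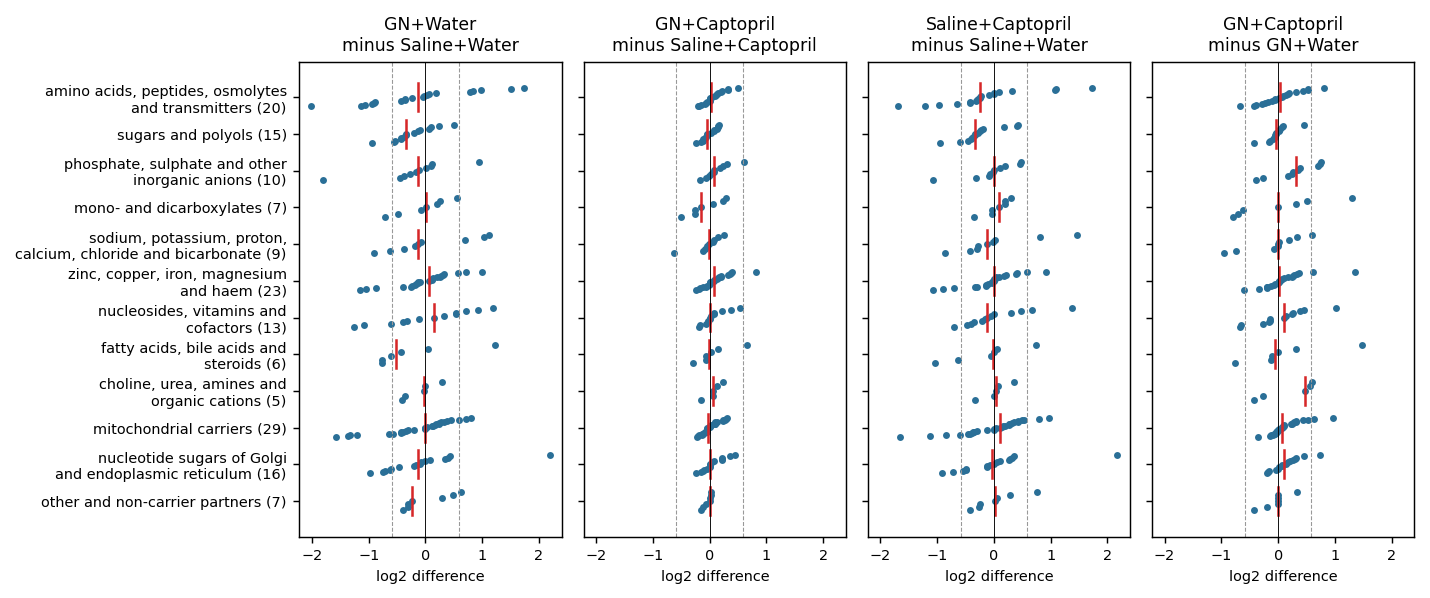
Log2 differences (horizontal axes) in the 4 comparisons for the 160 solute carrier genes by substrate class, 1 point per gene, with the class median as a red bar, dashed lines at 1.5-fold and the number of genes in brackets. In GN+Captopril minus Saline+Captopril 4 points lie past the lines, and in GN+Captopril minus GN+Water the median of the phosphate and sulphate class lies at 0.31.

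Among carriers of sodium, potassium, protons, calcium, chloride and bicarbonate, 9 of 21 passed the filter. Slc12a7, the potassium chloride cotransporter KCC4, had levels of 9.71, 9.41, 9.08 and 9.67, lowest on the array labelled GN+Water. Slc4a2, the chloride bicarbonate exchanger AE2, was highest on Saline+Water at 9.01, 8.15, 8.11 and 8.03. Slc12a2, the sodium potassium chloride cotransporter NKCC1, was lowest on Saline+Water at 7.37, 8.82, 8.39 and 8.74, but its 2 other probe sets differed between the water arrays by -1.18 and -0.24 where the chosen one differed by 1.03, and its direction is uncertain. The scaffolds that hold such carriers at the apical membrane, Slc9a3r1 and Slc9a3r2, carry the Slc symbol without being carriers. Slc9a3r1 was at 11.89, 11.92, 11.59 and 11.92 and Slc9a3r2 at 7.72, 7.77, 8.20 and 7.79; the array labelled GN+Water was the lowest for the first and the highest for the second. Other probe sets differ from this. One of Slc9a3r1 was highest on Saline+Water, at 12.34, and differed by -1.39 between the water arrays. For Slc9a3r2, 4 of the 5 others were highest on Saline+Water and differed there by -0.79 to -0.34, so that its direction is uncertain.

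Of 25 metal carriers 23 passed the filter. By the probe set chosen, 16 stayed within 1.5-fold on all arrays (against 56.9% of all genes), which does not hold for all probe sets, for example of Slc48a1. The median span of the 23 was 0.53, against 0.51 over all genes. Between the GN arrays Slc30a2 was 2.57-fold higher on captopril (1.36). Slc39a3 and Slc39a13, zinc importers, were highest on Saline+Water, at 8.60, 7.71, 7.45 and 7.71 and at 8.87, 7.80, 7.99 and 8.0. Slc30a9, a zinc carrier family member, was lowest there at 9.34, 10.26, 10.33 and 10.43. Slc31a1, the copper uptake carrier CTR1, was at 10.21, 10.78, 10.48 and 10.66. Slc39a14, a zinc and iron importer, was at 7.32, 7.50, 7.52 and 7.85, highest on GN+Captopril, while its second probe set was at 6.97 to 7.21.

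Of 17 carriers of nucleosides, vitamins and cofactors, 13 passed. Slc46a1, the proton-coupled folate carrier, had levels of 9.90, 9.20, 8.81 and 9.20. Slc33a1, which brings acetyl-CoA into the endoplasmic reticulum, had levels of 9.14, 10.53, 10.34 and 10.61, and the low array was Saline+Water. Slc23a1, the apical vitamin C carrier, was at 11.48, 11.13, 11.10 and 10.94, within 1.5-fold. Among the fatty acid, bile acid and steroid carriers 6 of 10 passed, and the class median between the water arrays was -0.52. Slc27a2, the fatty acid carrier and acyl-CoA synthetase FATP2, was at 13.95, 13.91, 13.53 and 13.85, and Slc27a4, its relative FATP4, at 9.36, 8.33, 8.60 and 8.48. Slc10a2, the apical bile acid carrier ASBT, ran against Slc51a: it had levels of 5.69, 6.44, 6.91 and 6.15, highest where Slc51a was lowest, but 2 of its arrays lay under the filter's level.

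Among the choline, urea, amine and organic cation carriers 5 of 9 passed, and their median between the GN arrays was 0.48. Of the 5, Slc44a1 (-0.27) and Slc44a2 (-0.42) went the other way there. Slc47a1, the apical exporter MATE1 of organic cations, was at 12.63, 12.71, 12.21 and 12.77. Slc18a1, a vesicular amine carrier, was at 10.35, 10.35, 9.99 and 10.59, 1.51-fold higher with captopril between the GN arrays. That difference was 0.60, and 0.57 after quantile normalisation. Slc44a4, a choline carrier family member that takes up thiamine pyrophosphate, was at 10.37, 10.73, 10.36 and 10.85, with both captopril arrays above both water arrays by at least 0.36.

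Of 33 mitochondrial carriers 29 passed the filter. By the probe set chosen, 21 stayed within 1.5-fold on all arrays (against 56.9% of all genes), which does not hold for all probe sets, for example of Slc25a5 and Slc25a39. On captopril 0 of the 29 were apart by 1.5-fold (against 1.85% of all genes higher and 0.207% lower). Slc25a23 and Slc25a25, calcium-regulated carriers of ATP-Mg and phosphate, were highest on Saline+Water, at 9.72, 8.06, 8.14 and 8.16 and at 8.98, 8.13, 7.77 and 8.41. Slc25a37, the iron carrier mitoferrin-1, and Slc25a36, a pyrimidine nucleotide carrier, were lowest there, at 7.45, 8.26, 8.04 and 8.49 and at 9.56, 10.53, 10.28 and 10.30. The second probe set of Slc25a36 was at 8.56, 9.08, 8.53 and 8.72, with no low value on Saline+Water, and with both averaged its difference between the water arrays was 0.35 in place of 0.72. Slc25a4, the ADP/ATP carrier ANT1, was at 11.32, 11.82, 12.12 and 11.77. Of 18 nucleotide sugar carriers of the Golgi and endoplasmic reticulum family 16 passed. Slc35a5 had the widest span of all members, 2.19, with levels of 7.36, 9.53, 9.55 and 9.37, but its 4 other probe sets differed between the water arrays by -0.59 to 0.71, so that the size is uncertain.

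From a list of kidney carriers 45 genes passed the filter, and by the probe set chosen 26 stayed within 1.5-fold on all 4 arrays (57.8%, against 56.9% of all genes). The list also holds Slc11a1, a transporter of macrophages, and the scaffolds Slc9a3r1 and Slc9a3r2, which are not carriers. It was drawn up with earlier results of these data known. On captopril 2 were higher with GN, Slc11a1 and Slc20a1 (4.44%, against 1.85%), and 1 was lower, Slc8a1 (2.22%, against 0.207%). Between the water arrays 8 were higher (17.8%, against 19.6%) and 7 lower (15.6%, against 15.3%), shares close to those of all genes. Of 57 genes listed, 5 lay below the filter, namely Slc5a3, Slc2a9, Slc6a12, Slc15a3 and Slc14a1, and 7 are not analysed here.

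**Figure D5:**
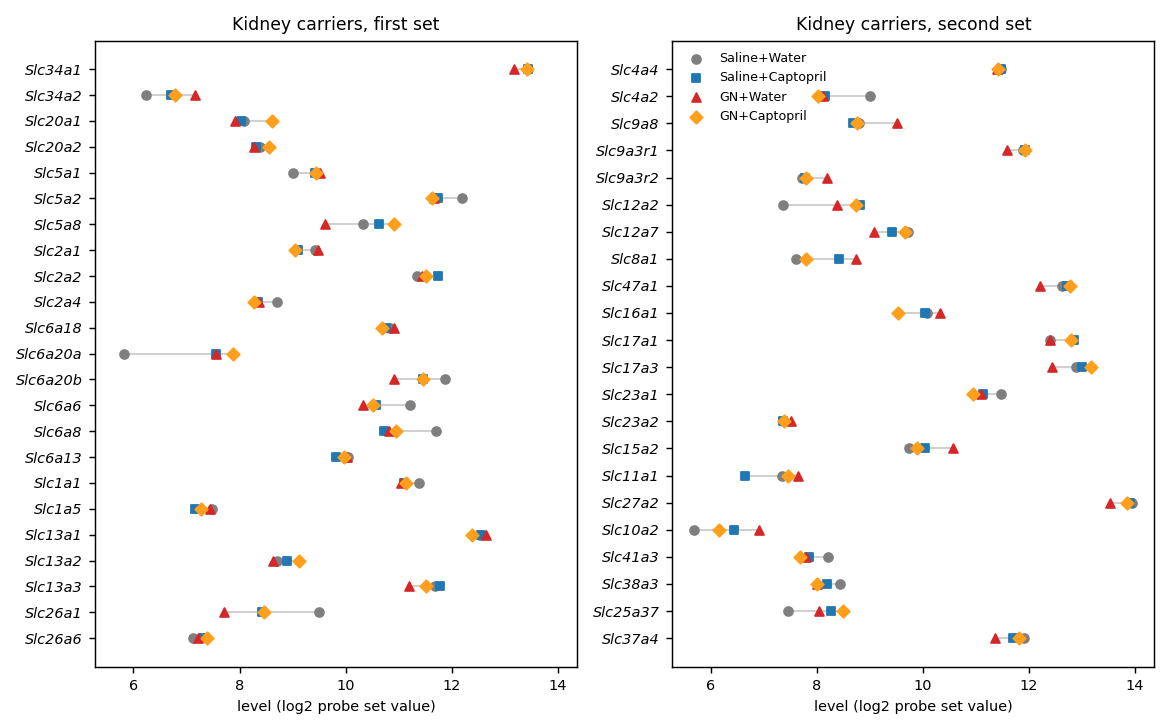
Level (log2 probe set value, horizontal axes) of the 45 genes past the filter from the list of kidney carriers on the 4 arrays, 1 symbol per array joined by a line per gene. Slc4a4 and Slc34a1 show nearly coinciding symbols, while Slc6a20a (5.83 to 7.88) and Slc26a1 (7.70 to 9.50) are wide; levels of different genes are not comparable, since each probe set has its own response.

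Genes that work with these carriers, none of them a member, were read from a list of 20, of which 16 were measured. Between the water arrays 3 were higher and 4 lower (against 19.6% and 15.3% of all genes), and on captopril 0 were higher and 1 lower (against 1.85% and 0.207%). Nr1h4, the bile acid receptor, was at 10.81, 9.85, 9.24 and 10.18, lowest on the array labelled GN+Water as Slc51a was, but highest on Saline+Water. Sgk1, a kinase that raises the surface abundance of many carriers, was at 9.10, 9.70, 11.05 and 9.09 and was the 1 lower on captopril (-0.61). Vdr, the vitamin D receptor, was at 10.92, 10.18, 9.83 and 10.21 and Kl, the phosphate hormone coreceptor klotho, at 11.93, 11.69, 11.18 and 11.68. Pdzk1, a scaffold of brush border carriers, was steady at 12.61, 12.57, 12.36 and 12.60.

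Members with several probe sets give a check within the array. Of the 160, 69 had more than 1 probe set. Their 46 differences of at least 1.5-fold were matched by another probe set of the gene, at 1.5-fold and in the same direction, in 23 cases, and opposed at that size in 5. For the 91 members with 1 probe set, among them Slc51a, Slc30a2, Slc46a3 and Slc11a1, no such check exists.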

How the data were processed

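RNA of whole kidney was measured on 4 Affymetrix arrays, 1 for each of 4 groups, from 6 µg of total RNA per the labels' protocols. The values deposited by the authors are on a log2 scale, 1 for each of 22690 probe sets, with array medians between 6.93 and 6.99. Per the submitters' processing notes, GCOS and RMA were used, with no version or role given. Which background correction and normalisation were applied is not given in the sources used here, and the values were taken unchanged. Gene names came from the platform annotation, updated by Entrez ID through a RefSeq table of GRCm38.p6: 20393 had 1 symbol, 691 several and 1606 none, and those with 1 were used. The expression filter left 8207 of 12394 genes.

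Each comparison is a log2 difference between 2 arrays, so the number of arrays limits the precision, and no fit, standard deviation or p-value is given. An additive fit of GN and captopril was not run. Differences of at least 1.5-fold were counted in the members and in all genes past the filter. The named genes are the 8 highest and 8 lowest members past 1.5-fold in each comparison, the 3 with the widest span in each class, and the 57 genes of the list of kidney carriers, of which the text gives those that the account needs. The members, classes and lists were chosen with earlier results of these data known. Counting was tested on simulated data. The alternatives were another filter, centring, quantile normalisation, another choice of probe set, a 2-fold threshold and exchanged arrays. Counts of members with 1 array apart, and of members whose groups do not overlap, were added after seeing the data. Python 3.11.15, numpy 2.4.6, pandas 2.3.3 and matplotlib 3.10.9 were used.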

Additional observations from a re-analysis of the deposited data

Results flagged for a closer look

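Some members had a captopril difference of at least 1.5-fold one way in saline and the other way in GN. Slc51a and Slc8a1 had a GN difference of that size one way on water and the other way on captopril. Each rests on 1 array per group, and the difference between the conditions was not tested. Slc26a1, the sulphate exchanger, was lower on captopril in saline mice (-1.07) and higher in GN mice (0.76), values that differ by 1.82. Slc25a42, the coenzyme A carrier, went the same way (-0.60 and 0.96, differing by 1.57), as did Slc25a25, the ATP-Mg carrier (-0.85 and 0.63, differing by 1.48). Slc10a2, the apical bile acid carrier with 2 arrays under the filter's level, was higher on captopril in saline mice (0.74) and lower in GN mice (-0.76), differing by -1.51. Slc8a1, the sodium calcium exchanger, did likewise (0.81 and -0.95, differing by -1.76), and its GN differences were 1.12 on water and -0.63 on captopril, which differ by -1.76 too. Its 2 other probe sets, both below the filter, showed neither reversal at 1.5-fold. Their captopril differences were -0.35 and 0.65 in saline and -0.35 and 0.00 in GN, so that both reversals of Slc8a1 are uncertain. Slc51a, the bile acid exporter, had GN differences of -0.77 on water and 0.66 on captopril, differing by 1.43. Of all genes past the filter, 149 (1.82%) had captopril differences of opposite direction at this size. The share of all genes with GN differences of opposite direction, as in Slc51a and Slc8a1, was not counted. Each pair of values uses the Saline+Water array and the array labelled GN+Water, both of which stand apart.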

How the results depend on the processing

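No paired analysis was possible because each group has 1 array, and leaving out a replicate was not possible for the same reason. In the main setting, members higher and lower by 1.5-fold numbered 20 and 30 (GN+Water minus Saline+Water), 3 and 1 (GN+Captopril minus Saline+Captopril), 13 and 20 (Saline+Captopril minus Saline+Water) and 14 and 10 (GN+Captopril minus GN+Water). At 2-fold they were 7 and 12 (10.3% and 4.42% of all genes), 0 and 0 (0.719% and 0.0244%), 6 and 7 (6.43% and 2.08%), and 4 and 0 (1.39% and 1.12%). The first pair became 6 and 9 when Saline+Captopril replaced Saline+Water, 12 and 17 when GN+Captopril replaced GN+Water, and 5 and 8 when both saline arrays had to differ, a count added after seeing the data. With a gene's probe sets averaged, the 1 lower on captopril became 0 and the 4 above the others on the array labelled GN+Water became 2. With no filter the 20 lower between the saline arrays became 32, and the 15 above the others on Saline+Water became 24. At 2-fold, members apart above and below the others were 4 and 5 on Saline+Water (15 and 10 at 1.5-fold) and 0 and 2 on the array labelled GN+Water (4 and 8).

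Of 1330 alternative values of the named members, 1268 lay within 0.58 (log2) of the main value, 45 moved further and 17 reversed. All 17 were in GN+Water minus Saline+Water. A reversal was counted only for main values past 1.5-fold, so smaller values may have changed sign. Of 444 alternatives to main values past 1.5-fold, 380 were still past it in the same direction. Most of these alternatives alter the values little. Of 40 values past 1.5-fold, 11 stayed so when Saline+Captopril replaced Saline+Water and 23 when GN+Captopril replaced GN+Water. Averaging the probe sets turned Slc12a2 to -0.13. Replacing Saline+Water by Saline+Captopril gave -0.43 for Slc12a2, 0.08 for Slc25a23, -0.24 for Slc25a36, -0.21 for Slc25a37, 0.27 for Slc27a4, -0.19 for Slc33a1, 0.07 for Slc38a10, 0.19 for Slc39a13, -0.12 for Slc66a1, -0.12 for Slc6a15 and 0.07 for Slc6a8. Replacing GN+Water by GN+Captopril gave 0.33 for Slc30a2, 0.02 for Slc35a3, 0.71 for Slc51a, 0.58 for Slc5a8 and -0.04 for Slc9a8. Centring and quantile normalisation reversed none of the named values past 1.5-fold. Exchanging an array changes what is compared; otherwise the cause was not tested.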

Other observations

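Below the filter, 62 members had too low a mean to enter the counts, and 11 of them did not exceed the negative controls' 90th percentile on any of the 4 arrays. Of the 62, 10 reached the filter's level on at least 1 array. Among these low members, picked out after their values were seen, Slc17a2, a relative of the urate and phosphate carriers Slc17a1 and Slc17a3, had levels of 5.56 (Saline+Water), 5.32 (Saline+Captopril), 7.90 (the array labelled GN+Water) and 5.24 (GN+Captopril). The high array lay 5.07-fold above Saline+Water and 6.31-fold above GN+Captopril. Slc15a3, a lysosomal peptide carrier of myeloid cells, had levels of 5.33, 5.03, 6.24 and 6.01 in the same order, with both GN arrays above both saline arrays. All 10 macrophage and leukocyte markers were at least 1.5-fold higher with GN on water, and 9 of 10 reached that size on captopril. Slc1a2, the glutamate carrier EAAT2, was high on Saline+Water, at 7.0 against 5.66 to 6.11.

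Slc13a2, the apical dicarboxylate carrier NaDC1, and Slc46a1, neighbours on chromosome 11, differed between the water arrays by -0.08 and -1.09. Exactly equal values on some pair of arrays occurred in 26 members, 13 of them between Saline+Captopril and GN+Captopril, and in 16.7% of all genes.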
